A study of Mus musculus with 37 samples.

Results

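The simple epithelial keratins Krt7, Krt8, Krt18, Krt19 and Krt20 were followed across obstructed, contralateral and healthy mouse kidneys on Illumina bead arrays. They were chosen by gene symbol, with 1 probe per gene (the one with the highest mean signal), and all 5 were among the 12866 genes measured. Krt8 had a second probe that was detected on 0 of 37 arrays and was not used. Of 44 other keratin genes on the array, 17 passed the filter on dim probes and served as the comparison within the family.

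Keratins are the intermediate filament proteins of epithelial cells and assemble as obligate pairs of a type I and a type II chain. Krt7 and Krt8 are type II chains, and Krt18, Krt19 and Krt20 are type I chains that can pair with them. In the kidney Krt8 and Krt18 are made along the tubule, with low levels in the proximal tubule, Krt7 and Krt19 are known from the collecting duct and the urothelium that lines the renal pelvis, and Krt20 is best known from the gut lining and the outermost urothelial cells. Keratin filaments carry mechanical load, and several simple epithelial keratins are known to be induced when epithelial cells are stressed.

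Krt8 (chr15:101996711-102004342), Krt18 (chr15:102028216-102032026) and Krt7 (chr15:101412403-101427806) lie on mouse chromosome 15, and Krt8 and Krt18 are only 23.9 kb apart. Krt19 (chr11:100140810-100145926) and Krt20 (chr11:99428385-99438153) lie on chromosome 11 (GRCm38.p6, RefSeq). RefSeq promoter sequences matched 4 of the 5 genes. The 250 bases before the start of Krt8 and of Krt18 are shown because these neighbours varied together most closely of any member pair across obstructed kidneys. Those of Krt20 are shown because no such relation of its levels to the other members was detected. Capitals mark the 6 letters CACCTG, which read CAGGTG on the other strand, the E2-box known to be bound by Snail and Zeb factors. The sequences run 5′ to 3′ on the strand of the gene, at chr15:102004343-102004592 (minus strand), chr15:102027966-102028215 (plus strand) and chr11:99438154-99438403 (minus strand).
Krt8: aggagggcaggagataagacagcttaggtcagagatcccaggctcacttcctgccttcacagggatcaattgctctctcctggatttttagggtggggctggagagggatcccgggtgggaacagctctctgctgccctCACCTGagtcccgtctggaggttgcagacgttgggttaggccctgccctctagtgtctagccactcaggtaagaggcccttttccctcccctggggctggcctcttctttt
Krt18: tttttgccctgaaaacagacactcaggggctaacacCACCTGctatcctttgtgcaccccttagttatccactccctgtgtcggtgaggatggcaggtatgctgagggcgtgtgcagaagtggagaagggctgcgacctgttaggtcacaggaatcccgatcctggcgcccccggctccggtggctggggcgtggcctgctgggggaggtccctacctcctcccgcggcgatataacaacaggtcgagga
Krt20: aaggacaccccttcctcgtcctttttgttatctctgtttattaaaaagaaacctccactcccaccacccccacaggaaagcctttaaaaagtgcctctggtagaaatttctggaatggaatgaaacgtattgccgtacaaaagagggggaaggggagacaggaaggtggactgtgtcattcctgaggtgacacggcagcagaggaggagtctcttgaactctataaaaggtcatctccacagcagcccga
The E2-box occurred once each in Krt7, Krt8 and Krt18, starting at -44, -111 and -214 relative to the gene start, and was not in the Krt20 window. Of 32851 promoter windows of the same length, 17.2% held CAGGTG on either strand. The general E-box CANNTG, which includes every CAGGTG, was in 66.2% of windows and gave 1 further match in Krt8, at -184. The AP-1 letters TGANTCA, found in 6.7% of windows, were in none of the 4 windows. A match is a description of letters and was not tested as a binding site.

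The arrays measured total RNA of whole kidneys from 25 mice, on 37 arrays in 12 groups, after unilateral ureteral obstruction, in which 1 ureter is tied off and the kidney above it is injured and scars. In the Twist line, obstructed kidneys came from 3 controls numbered 1 to 3 (ggt-cre-;Twist flox/flox) and from 4 mice lacking Twist1 in the tubule, numbered 4 to 7 (ggt-cre+;Twist flox/flox). In the Snail line they came from 3 controls numbered 8 to 10 (ggt-cre-;Snail flox/flox) and 3 mice lacking Snai1 there, numbered 11 to 13 (ggt-cre+;Snail flox/flox). The contralateral kidney of each was arrayed too, except for mouse 5, whose contralateral kidney was not analysed here. Healthy kidneys came from wild-type animals with cre (mice 14 to 16) or without it (mice 17 to 19), and from animals of the Twist line (mice 20 to 22) and Snail line (mice 23 to 25) that carried the deletion, 3 of each. The ggt promoter drives cre in proximal tubule cells, so both genes were left intact in other cells of the kidney. All deleted mice carried cre and no floxed control did, so within a line the deletion and cre cannot be told apart. The Twist line and the wild-type mice had a mixed C57Bl/6 and sv129 background and the Snail line a mixed C57Bl/6 and Balb/c background. Age was 10 weeks except in the healthy kidneys with a deletion, which were taken at 26 weeks, and the labels do not give the sex.

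Detected probes numbered 16977 to 20682 per array, raw median signals were 93 to 133.8, and arrays of 1 group correlated at r = 0.935 to 0.992. The kidney label was borne out by its markers, as all 4 proximal tubule genes (such as Slc34a1) and both thick limb genes were detected on every array. Twist1 in obstructed kidneys averaged 4.78 ± 0.25 (SD, n = 4) in Twist1-deleted mice and 5.12 ± 0.38 (n = 3) in their controls on the log2 scale (log2 change -0.34, SE 0.19, limma adjusted p = 0.507). Snai1 averaged 5.33 ± 0.45 in Snai1-deleted mice and 5.68 ± 0.35 in their controls (n = 3 each; log2 change -0.36, SE 0.27, adjusted p = 0.667). Other cells of the kidney keep both genes, and the position of each probe relative to the deleted exons is unknown. The genotype labels could therefore not be checked from these 2 genes.

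Levels below are log2 normalised probe intensities. A probe was called detected where its detection p was under 0.05, and a change was called where limma's p, adjusted by Benjamini-Hochberg over all 12866 genes, was under 0.05. Intensities of different probes are not on a common scale, so no keratin's level is set against another's. The samples are whole kidneys, in which fewer cells of a type and less RNA per cell cannot be told apart.

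**Figure D1:**
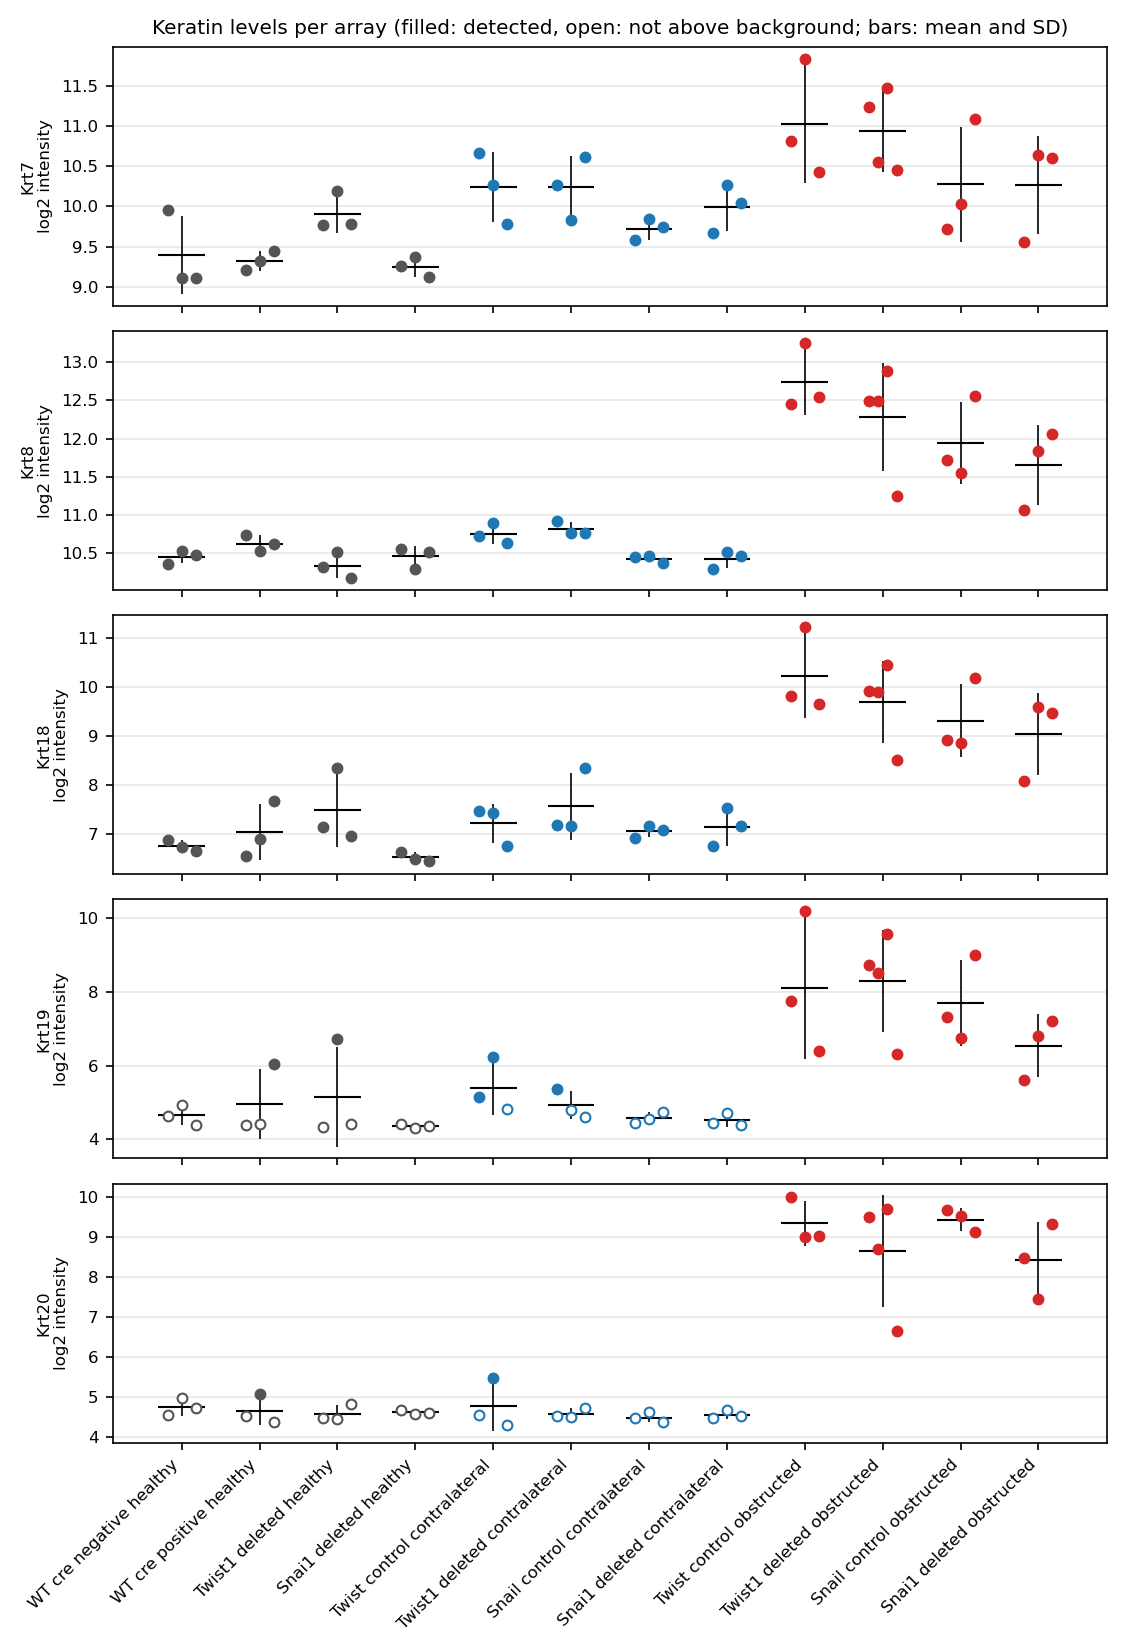
Log2 normalised intensity of each keratin on all 37 arrays, by group (grey healthy, blue contralateral, red obstructed); filled points were detected and open points were not above background, and lines give the group mean and SD. The obstructed groups have the 4 highest means for every keratin, and Krt20 was detected in 13 of 13 obstructed kidneys but in 1 of 12 contralateral and 1 of 12 healthy kidneys.

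Obstruction asked how the keratins of a kidney with a tied ureter differ from those of the other kidney of the same mice. Krt8, Krt18 and Krt20 rose in each of the 4 genotype groups, and Krt19 rose in 3 of them. Krt20 had the largest log2 change of the 5 in each group and Krt7 the smallest, with no call for Krt7 in any group. The rise was called for 4 of 5 members in Twist-line controls, where 26.7% of all genes were called higher, and for 4 of 5 in Twist1-deleted mice, where 21.9% were. In Snail-line controls 4 of 5 were called beside 21.1% of all genes, and in Snai1-deleted mice 3 of 5 beside 10.5%. The median log2 change of all genes was 0.05, 0.01, 0.02 and 0.00 in these groups in the same order. Without mouse 13 only 1 of 5 was called in Snai1-deleted mice, Krt20.

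The median level over the 13 obstructed, 12 contralateral and 12 healthy kidneys was 10.60, 9.94 and 9.35 for Krt7, 12.45, 10.58 and 10.52 for Krt8, and 9.64, 7.15 and 6.80 for Krt18. For Krt19 the medians were 7.32, 4.73 and 4.41, and for Krt20 they were 9.11, 4.51 and 4.58, with the contralateral and healthy values of both mostly not above background. Ordered by mean, the 4 obstructed groups came first for each of the 5 keratins. Among the 11 pairs of neighbouring groups in that order, the arrays overlapped in all 11 for Krt7 and Krt19 and in all but 1 for Krt8, Krt18 and Krt20. For Krt8 and Krt20 the break lay below the obstructed Snai1-deleted group, and for Krt18 it lay between healthy ggt-cre- wild-type and healthy Snai1-deleted kidneys. The order and overlap of groups were not counted over all genes.

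Krt8, the main type II chain of simple epithelia, was detected on all 37 arrays. In Twist-line controls it measured 12.45, 13.25 and 12.54 in the obstructed kidneys of mice 1, 2 and 3 and 10.73, 10.90 and 10.64 in their contralateral kidneys. In Twist1-deleted mice the obstructed kidneys of mice 4 to 7 measured 12.49, 12.50, 12.88 and 11.25, and the contralateral kidneys of mice 4, 6 and 7 measured 10.93, 10.77 and 10.76. In both groups every obstructed kidney lay above every contralateral one, and mouse 7 was the lowest of the Twist1-deleted. Snail-line controls measured 11.72, 11.56 and 12.56 in obstructed kidneys (mice 8, 9 and 10) and 10.45, 10.47 and 10.38 in contralateral ones. Snai1-deleted mice measured 11.06, 11.84 and 12.06 (mice 11, 12 and 13) against 10.30, 10.51 and 10.46. The groups did not overlap here either. How many of all genes separated in this way was not counted. Krt8 rose 3.97-fold in Twist-line controls (log2 change 1.99, SE 0.28, adjusted p = 1.62e-06), 2.76-fold in Twist1-deleted mice (1.46, SE 0.26, adjusted p = 7.62e-05), 2.85-fold in Snail-line controls (1.51, SE 0.28, adjusted p = 0.000122) and 2.35-fold in Snai1-deleted mice (1.23, SE 0.28, adjusted p = 0.00312). Without mouse 13 the last change was 1.04 and was no longer called (adjusted p = 0.0831).

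Krt18, the type I partner of Krt8, was also detected on all 37 arrays and rose further than Krt8 in each group. Obstructed kidneys of Twist-line controls measured 9.82, 11.22 and 9.64 and contralateral kidneys 7.46, 7.42 and 6.75. In Twist1-deleted mice the values were 9.91, 9.90, 10.44 and 8.50 in obstructed kidneys and 7.17, 7.15 and 8.35 in contralateral ones. Mouse 7 had the lowest obstructed and the highest contralateral value of its group, so its 2 kidneys lay close together (difference 0.16). Snail-line controls measured 8.91, 8.85 and 10.17 against 6.91, 7.14 and 7.08. Snai1-deleted mice measured 8.07, 9.58 and 9.46 against 6.75, 7.51 and 7.15. No obstructed value overlapped with the contralateral values of its group, a separation that was not counted over all genes. Krt18 rose 8.09-fold in Twist-line controls (log2 change 3.02, SE 0.48, adjusted p = 7.33e-06), 4.39-fold in Twist1-deleted mice (2.13, SE 0.45, adjusted p = 0.000383), 4.80-fold in Snail-line controls (2.26, SE 0.48, adjusted p = 0.00045) and 3.74-fold in Snai1-deleted mice (1.90, SE 0.48, adjusted p = 0.00631). Without mouse 12 or 13 the call in Snai1-deleted mice was lost (1.82, adjusted p = 0.0517, and 1.69, adjusted p = 0.107).

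Krt7, a type II chain of ducts and urothelium, was detected on every array and changed least. Obstructed kidneys of Twist-line controls measured 10.82, 11.84 and 10.42 and contralateral kidneys 10.66, 10.27 and 9.79. Twist1-deleted mice measured 11.24, 10.56, 11.47 and 10.46 against 10.26, 9.84 and 10.62. The groups overlapped in both. Snail-line controls measured 9.72, 10.03 and 11.08 against 9.58, 9.85 and 9.74, and Snai1-deleted mice 9.56, 10.64 and 10.60 against 9.67, 10.26 and 10.04. Single kidneys, such as those of mice 2, 4, 6 and 10, stood well above the rest of their groups' contralateral values, while the others lay near them. The log2 changes were 0.79 (SE 0.35, adjusted p = 0.0674), 0.69 (SE 0.33, adjusted p = 0.0952), 0.55 (SE 0.35, adjusted p = 0.235) and 0.28 (SE 0.35, adjusted p = 0.666) in the 4 groups in the same order, and none was called. With mouse as a random replicate block the Twist-line changes passed (0.79, adjusted p = 0.0347 in controls and 0.72, adjusted p = 0.0475 in Twist1-deleted mice), and with mouse as a fixed replicate block they did not (adjusted p = 0.0781 and 0.0844). Without mouse 1 the change in Twist-line controls was 1.10 (adjusted p = 0.0411), and without mouse 7 that in Twist1-deleted mice was 1.04 (adjusted p = 0.0302).

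Krt19, a type I chain of ducts, was near background outside the obstructed kidneys and varied most among them. In Twist-line controls the obstructed kidneys measured 7.74, 10.19 and 6.40 and the contralateral kidneys 5.15, 6.23 and 4.83, the last of which was not above background. In Twist1-deleted mice they measured 8.74, 8.51, 9.58 and 6.33 against 5.36, 4.80 and 4.61, with only mouse 4 detected among the contralateral kidneys. Mouse 2 was highest and mouse 11 lowest of the 13 obstructed kidneys. Snail-line controls measured 7.32, 6.75 and 9.00 and Snai1-deleted mice 5.59, 6.81 and 7.22, while their contralateral kidneys lay between 4.39 and 4.75 and were all not above background. The groups of obstructed and contralateral kidneys did not overlap in any genotype, which was not counted over all genes either. Krt19 rose by 2.71 on the log2 scale in Twist-line controls (SE 0.76, adjusted p = 0.00405), by 3.37 in Twist1-deleted mice (SE 0.71, adjusted p = 0.000418) and by 3.11 in Snail-line controls (SE 0.76, adjusted p = 0.00181, at least 6.62-fold). Where a group was undetected throughout, the fold is a lower bound, taken against the dimmest detected probe of each array unless the keratin itself was brighter. In Snai1-deleted mice Krt19 was at least 2.83-fold higher and was not called (2.03, SE 0.76, adjusted p = 0.068), but it passed with mouse as a random or a fixed replicate block (adjusted p = 0.0243 and 0.034).

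Krt20, a type I chain of terminally differentiated epithelia, went from background to a clear signal. It was detected on 15 arrays, 13 of them obstructed, so it passed the filter on dim probes only through the obstructed kidneys. In Twist-line controls obstructed kidneys measured 9.98, 8.98 and 9.02 and contralateral kidneys 4.54, 5.46 and 4.28, of which only that of mouse 2 was detected. Obstructed kidneys of Twist1-deleted mice measured 9.49, 8.70, 9.70 and 6.63, those of Snail-line controls 9.66, 9.50 and 9.11, and those of Snai1-deleted mice 8.47, 7.45 and 9.32. Their contralateral kidneys lay between 4.37 and 4.72, and 0 of 9 were detected. The lowest obstructed kidney, that of mouse 7, was still above every contralateral and healthy kidney, again without a count over all genes. Krt20 rose 23.7-fold in Twist-line controls (log2 change 4.57, SE 0.48, adjusted p = 2.17e-08), a fold that is approximate because only 1 of 3 contralateral kidneys was detected. Krt20 rose at least 11.5-fold in Twist1-deleted mice (4.06, SE 0.45, adjusted p = 8.68e-08), at least 22-fold in Snail-line controls (4.95, SE 0.48, adjusted p = 2.49e-08) and at least 10.4-fold in Snai1-deleted mice (3.87, SE 0.48, adjusted p = 2.78e-06). The first fold is not a lower bound, so it cannot be set against the others.

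The 2 kidneys of a mouse could be compared directly in 12 mice, which uses no spread shared between genes. Krt8, Krt18, Krt19 and Krt20 were higher in the obstructed kidney in 12 of 12 mice, and Krt7 in 10 of 12. How many of all genes were higher in every mouse was not counted, so these counts have no background beside them. The mean differences on the log2 scale were 1.53 ± 0.57 (SD, n = 12) for Krt8, 2.31 ± 0.98 for Krt18, 2.79 ± 1.13 for Krt19 and 4.36 ± 1.09 for Krt20. Each of these gave p = 0.000488 in a two-sided exact sign-flip permutation test, the smallest that 12 mice allow (0.00061 adjusted over the 5 tests). For Krt7 the mean was 0.61 ± 0.63 and ran from -0.16 in mouse 7 to 1.64 in mouse 6 (exact p = 0.00439, the same after adjustment). Among the 3 mice in which neither kidney had all 4 uroplakins, markers of urothelium, detected (mice 3, 8 and 12), a setting chosen after seeing the data, all 5 keratins were higher in the obstructed kidney in 3 of 3. Their mean differences were 0.38 for Krt7, 1.50 for Krt8, 2.32 for Krt18, 2.19 for Krt19 and 4.24 for Krt20, at an exact p of 0.25, the smallest that 3 mice allow, so no call is possible there. Urothelial signal remained in these mice, as 3 of the 4 uroplakins were detected in the obstructed kidneys of mice 3 and 8. Upk1b measured 6.43 against 4.36 in mouse 3, 6.47 against 4.70 in mouse 8 and 4.83 against 4.46 in mouse 12. The part of urothelium was therefore not tested by this setting. Without the background step over all 12 mice, Krt19 differed by 1.44 and Krt20 by 2.47. Mouse 7 had the smallest difference for Krt7, Krt8, Krt18 and Krt20, and mouse 11 for Krt19 (1.16).

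**Figure D2:**
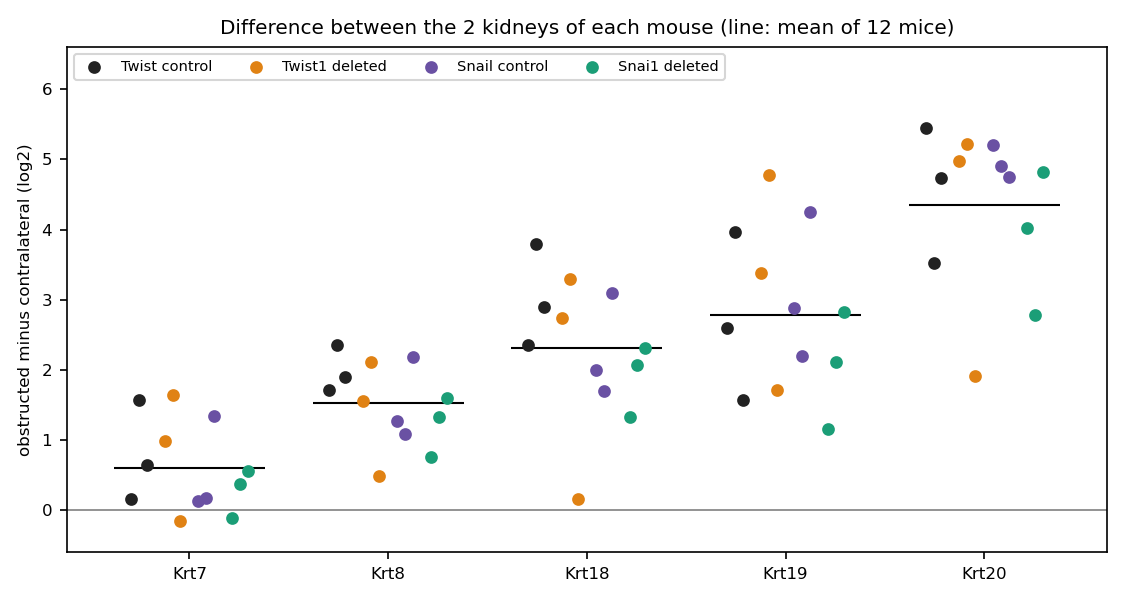
Obstructed minus contralateral log2 intensity for each of the 12 mice with both kidneys arrayed, coloured by genotype group, with a line at the mean. Krt20 differences run from 1.91 (mouse 7) to 5.44 (mouse 1), and only Krt7 has mice below 0.

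Deletion of Twist1 or Snai1 in proximal tubule cells asked whether the keratin response depends on these factors. The obstruction effect did not differ detectably for any of the 5 keratins, either between Twist1-deleted mice and their controls or between Snai1-deleted mice and their controls. Across all genes the background was 0% in each of these 2 tests of the difference by limma, with 757 and 409 genes at an unadjusted p under 0.05. For Krt20 the effect differed by -0.51 in the Twist line (95% interval -1.86 to 0.84, adjusted p = 0.927) and by -1.08 in the Snail line (-2.47 to 0.32, adjusted p = 1). For Krt8 the differences were -0.53 (-1.32 to 0.26) and -0.28 (-1.10 to 0.54), and for Krt18 they were -0.88 (-2.22 to 0.45) and -0.36 (-1.74 to 1.02). Krt19 gave the widest intervals, 0.65 (-1.47 to 2.78) and -1.08 (-3.27 to 1.12), and Krt7 gave -0.09 (-1.08 to 0.90) and -0.28 (-1.30 to 0.75). The intervals of all 10 differences reach below a log2 change of -1, while 3 of them, Krt18 in the Snail line and Krt19 in both lines, reach above 1. Snail-line and Twist-line controls, which differ in strain background, also gave 0 of 5 calls for the difference of their obstruction effects, beside 0.0389% of all genes, with Krt20 at 0.38 (-1.01 to 1.78) and Krt18 at -0.75 (-2.13 to 0.63).

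Set directly against each other, obstructed kidneys of deleted and control mice gave 0 of 5 calls in both lines, beside 0.0311% of all genes for Twist1 and 0% for Snai1 (1420 genes at an unadjusted p under 0.05). For Krt20 the Twist1-deleted mean was 8.63 ± 1.40 (n = 4) and the control mean 9.33 ± 0.57 (n = 3), a log2 change of -0.70 (SE 0.45, adjusted p = 0.565). The Snai1-deleted mean was 8.41 ± 0.94 and the control mean 9.42 ± 0.28 (n = 3 each), a log2 change of -1.01 (SE 0.48, adjusted p = 0.447), and the 2 groups overlapped. With array quality weights the last change was -1.25 and passed (adjusted p = 0.043), the only one of the 5 to do so. The weights gave 486 calls among all 12866 genes there, against 0 without them. Krt19 had -1.15 (SE 0.76, adjusted p = 0.609) for Snai1 and 0.18 (SE 0.71, adjusted p = 0.95) for Twist1. In contralateral kidneys 0 of 5 were called for either deletion, beside 0.00777% of all genes for Twist1 and 0% for Snai1 (330 at an unadjusted p under 0.05).

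**Figure D3:**
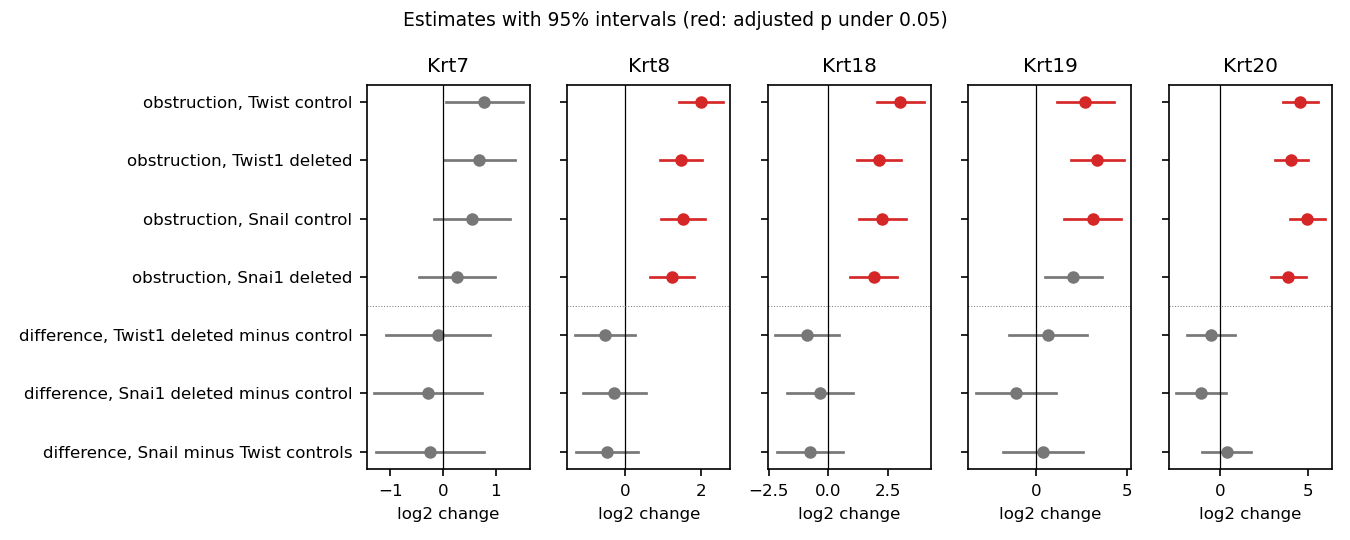
Log2 changes with 95% intervals for the 4 obstruction comparisons and, below the dotted line, for the 3 differences between obstruction effects; red marks an adjusted p under 0.05. The obstruction estimates of Krt8, Krt18 and Krt20 are red in all 4 groups, and all 15 differences are grey with intervals that include 0.

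Contralateral kidneys of Twist-line controls were set against healthy ggt-cre- wild-type kidneys of the same background and age. None of the 5 keratins passed, beside 17.8% of all genes. Krt7 came nearest, at 10.24 ± 0.44 in contralateral and 9.39 ± 0.49 in healthy kidneys (n = 3 each; log2 change 0.84, SE 0.35, adjusted p = 0.098). With array quality weights, which gave 3269 calls among all 12866 genes, Krt7 passed (0.91, adjusted p = 0.0289). Its healthy values were 9.95, 9.11 and 9.11, so mouse 17 overlapped with the contralateral kidneys. Krt20 differed by 0.02 (SE 0.48) and was detected in 1 of 3 contralateral and 0 of 3 healthy kidneys. Among healthy kidneys, 0 of 5 were called for cre (0.0155% of all genes), for Twist1-deleted against ggt-cre+ wild-type mice (3.4%) or for Snai1-deleted against ggt-cre+ wild-type mice (0.886%). The deleted mice were also 26 rather than 10 weeks old there, and the Snai1-deleted mice had another background. Krt7 in healthy Twist1-deleted mice (9.76, 10.19 and 9.78) lay above that in ggt-cre+ wild-type mice (9.20, 9.32 and 9.44) on every array, with a log2 change of 0.59 (SE 0.35) that passed only when these 2 groups were fitted alone (adjusted p = 0.372 and 0.0342). Fitted alone, these groups gave 2144 calls among all 12866 genes, against 438 in the main model.

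Across the 13 obstructed kidneys, 1 per mouse, Krt7, Krt8, Krt18 and Krt19 varied together, and no such relation to Krt20 was detected. Krt8 and Krt18 varied together most closely (r = 0.971, permutation p = 1e-05, the smallest that 100000 permutations can give, 0.0001 adjusted over 10 pairs; Spearman's coefficient = 0.956). Leaving out the 2 kidneys farthest from the median of Krt8 gave r = 0.947. The 6 pairs among Krt7, Krt8, Krt18 and Krt19 had r between 0.853 and 0.971, all past the threshold after adjustment by the permutation test. Some genes outside the keratins reached similar r with them, as given below. The share of all gene pairs that did so was not counted. The 4 pairs with Krt20 had r between 0.157 (Krt7) and 0.473 (Krt8) and did not pass (adjusted permutation p = 0.147 to 0.608). Within a line Krt8 and Krt18 gave r = 0.969 in the 7 Twist-line kidneys and 0.968 in the 6 Snail-line kidneys (adjusted exact permutation p = 0.0164 or lower and 0.0324). With 6 or 7 kidneys, Krt7 and Krt8 in the Twist line (r = 0.72) and Krt7 and Krt19 (0.761) and Krt18 and Krt19 (0.877) in the Snail line no longer passed. The p-values compare kidneys that also share genotype groups. As deviations from the group means, Krt8 and Krt18 gave r = 0.968.

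Of the genes with levels most like each keratin's over these 13 kidneys, some were shared among Krt7, Krt8 and Krt18. Those of Krt19 and of Krt20 were shared with no other member. Fkbp14, a folding enzyme of the endoplasmic reticulum, was among the 3 most alike for Krt7 (r = 0.912), Krt8 (0.951) and Krt18 (0.967). The others were the actin-binding drebrin gene Dbn1 (0.913) for Krt7, the ribosomal protein gene Rps19 (0.975) for Krt8 and the matrix cross-linking enzyme gene Loxl1 (0.945) for Krt18, beside the members themselves. For Krt19 they were the basal keratin Krt14 (0.960), Anxa8 (0.957) and the adhesion gene Tns4 (0.949). For Krt20 they were the cytokine receptor subunit Il20rb (0.901), the cytokine Il34 (0.901) and Arhgef3 (0.895). These are descriptions of likeness across the same 13 arrays.

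Urothelium, which lines the renal pelvis and makes all of these keratins, was followed through 7 measured marker genes, among them the 4 uroplakins Upk1a, Upk1b, Upk2 and Upk3a. All 4 uroplakins were detected in 7 of 13 obstructed, 4 of 12 contralateral and 2 of 12 healthy kidneys. The summed linear signal of the 7 genes ran from 279.8 to 6131 in obstructed, 160.4 to 1140 in contralateral and 171.3 to 1515 in healthy kidneys. The mean log2 level was highest in the obstructed kidneys of mice 6 (9.45), 2 (9.22), 4 (8.48), 5 (7.32), 10 (7.11) and 13 (6.61), and lay between 4.98 and 5.62 in the other 7. Among kidneys that were not obstructed it was highest in healthy mice 21 (7.36) and 16 (7.16) and in the contralateral kidney of mouse 2 (7.00). These 3 kidneys also had the highest Krt19 levels outside obstruction, 6.71, 6.05 and 6.23. Krt20 measured 4.43, 4.36 and 5.46 in them, and the 5.46 of mouse 2 was its highest level outside obstruction.

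In obstructed kidneys Krt19 went with the urothelial level (r = 0.889, Spearman's coefficient = 0.808, adjusted permutation p = 0.0005 over 10 relations; r = 0.784 without the 2 kidneys farthest from the median), as did Krt7 (r = 0.812, Spearman's coefficient = 0.731), Krt18 (0.771 and 0.813) and Krt8 (0.768 and 0.769). For the last 3 the relation no longer passed without the 2 farthest kidneys (r = 0.635, 0.578 and 0.597, each at adjusted permutation p = 0.109). Within lines, Krt19 gave 0.939 in the 7 Twist-line kidneys (adjusted exact permutation p = 0.0129) and 0.682 in the 6 Snail-line kidneys (0.316). In the Twist line Krt7, Krt18 and Krt8 gave 0.885, 0.791 and 0.705 (adjusted exact permutation p = 0.031, 0.0129 and 0.0453). In the Snail line they gave 0.600, 0.563 and 0.705 (0.381, 0.381 and 0.316). Over all 13 kidneys Krt20 gave r = 0.336 (adjusted permutation p = 0.261). In mice 7 and 9 the urothelial level was not higher in the obstructed kidney (5.34 against 5.85 and 4.98 against 5.08). Krt20 measured 6.63 against 4.72 in mouse 7 and 9.50 against 4.60 in mouse 9, and Krt19 measured 6.33 against 4.61 and 6.75 against 4.56. The part of urothelium in the keratin changes was not tested, and the settings that follow do not separate it. Arrays kept in the first of them could still hold 3 of the 4 uroplakins, as in the obstructed kidneys of mice 3, 7, 8 and 11. Without the arrays on which all 4 uroplakins were detected, a setting chosen after seeing the data, 4 of 5 keratins were called higher in Snail-line controls and 4 in Snai1-deleted mice, beside 16.8% and 8.46% of all genes, with 2 obstructed kidneys left in each. In the Twist line a single obstructed kidney was left per genotype, mouse 3 of the controls and mouse 7 of the Twist1-deleted mice, each assumed to vary like the other groups. There 4 of 5 were called in controls and 3 in Twist1-deleted mice, beside 19.1% and 10.2% of all genes, and these calls are values of single kidneys. Krt8 was the call lost in Twist1-deleted mice (0.41, adjusted p = 0.229). Under that setting Krt20 changed by 4.61 in Twist-line controls, 2.13 in Twist1-deleted mice, 5.17 in Snail-line controls and 3.38 in Snai1-deleted mice. For Krt19 it gave 1.41 in place of 2.71 in Twist-line controls and 1.25 in place of 3.37 in Twist1-deleted mice. With the urothelial level as a covariate, also chosen after seeing the data, 4 of 5 were called in each group. Of all genes, 24.3%, 14.5%, 19.5% and 9.55% were called higher in the same order, and Krt20 changed by 3.52 to 4.75. Krt19 in Snai1-deleted mice changed by 1.45 in place of 2.03. The urothelial level was itself higher in obstructed kidneys (median 5.62 against 4.86 in contralateral ones). This fit therefore cannot divide the keratin changes between obstruction and urothelium.

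Without those arrays Snai1 deletion in obstructed kidneys was called for 1 of 5 keratins, Krt20 (-1.62, adjusted p = 0.00691), beside 0.886% of all genes, with 2 kidneys in each group. The setting leaves out mouse 13, highest in Krt20 of the Snai1-deleted mice (9.32), and mouse 10, lowest of their controls (9.11). The groups overlapped only through these 2 kidneys. With all kidneys the change was -1.01 and was not called (limma adjusted p = 0.447), so the call depends on which kidneys were left out. For Twist1 deletion only the kidneys of mice 7 and 3 were left to compare, which differed by -2.40 for Krt20 and by -1.28 for Krt8.

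Tubular injury genes (8 measured, such as Lcn2, Havcr1 and Vcam1) were called higher in 7, 7, 8 and 8 of 8 cases in the 4 obstruction comparisons, beside 26.7%, 21.9%, 21.1% and 10.5% of all genes. Their mean log2 level in obstructed kidneys was lowest in mouse 7 (9.20), followed by mice 11 (10.18), 12 (10.28) and 13 (10.88), and reached 11.42 in mouse 2. The 3 kidneys lowest in injury genes were also the 3 lowest in Krt20 (6.63, 8.47 and 7.45). Krt20 followed the injury level by Pearson's r (0.843, adjusted permutation p = 0.00462) but not by rank (Spearman's coefficient = 0.352, adjusted permutation p = 0.298). Without the 2 farthest kidneys r was 0.608 (adjusted permutation p = 0.124) and Spearman's coefficient was -0.064, so neither passed. Krt8 gave r = 0.745 (Spearman's coefficient = 0.720), Krt18 0.665 (0.659) and Krt19 0.629 (0.670), none of which passed without the 2 farthest kidneys (0.594, 0.415 and 0.552), and Krt7 gave 0.365 (adjusted permutation p = 0.247). Within lines, Krt20 gave r = 0.857 in the Twist line and 0.846 in the Snail line (adjusted exact permutation p = 0.166 and 0.316), and Krt8 gave 0.938 and 0.566 (0.0152 and 0.381).

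**Figure D4:**
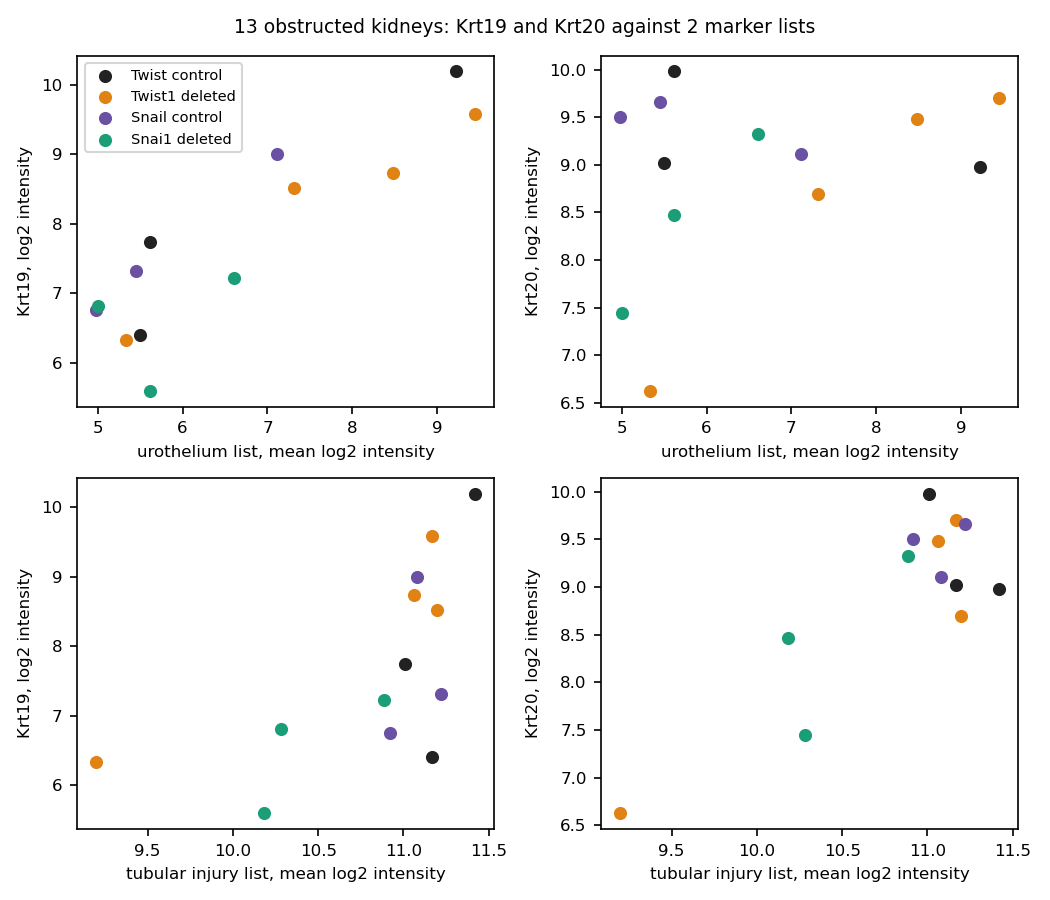
Krt19 (left) and Krt20 (right) in the 13 obstructed kidneys against the mean log2 level of 7 urothelium genes (top) and 8 tubular injury genes (bottom), coloured by genotype group. Krt19 follows the urothelium genes (r = 0.889), and the 3 kidneys lowest in injury genes are the 3 lowest in Krt20.

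Markers of other kidney cells moved as well. Proximal tubule genes were called lower in 4, 4, 4 and 1 of 4 cases in the 4 obstruction comparisons, principal cell genes of the collecting duct in 4, 4, 1 and 0 of 7 (with Gata3 higher in Snail-line controls) and intercalated cell genes in 4, 4, 2 and 2 of 4. Of all genes, 20.5%, 18.2%, 15.3% and 4.74% were called lower. Summed signals of principal cell genes were 3562 to 7642 in obstructed and 5094 to 11709 in contralateral kidneys. Of the 2 measured mesothelium genes, Msln was called higher in the 2 Twist-line comparisons. The part of these cell types in the keratin changes was not tested.

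Most of the other keratins were not called in any of the 4 groups. Of the 17 other keratins, 3 rose and 2 fell in Twist-line controls, 5 rose and 1 fell in Twist1-deleted mice, 3 rose in Snail-line controls and 1 rose in Snai1-deleted mice. Of all genes, 26.7%, 21.9%, 21.1% and 10.5% rose in these groups. The keratins' median log2 change was 0.00, 0.04, 0.01 and 0.14, against 0.05, 0.01, 0.02 and 0.00 for all genes. Only 3 to 6 of the 17 were detected in a contralateral kidney and 7 to 10 in an obstructed one. For those not above background, a change near 0 says little. Krt14, a type I chain of basal cells, measured 7.78, 12.73 and 6.74 in obstructed and 4.71, 5.67 and 4.46 in contralateral kidneys of Twist-line controls, and mouse 2 was far above the others. It rose by 4.14 there (adjusted p = 0.0145), by 4.41 in Twist1-deleted mice (adjusted p = 0.00744) and by 3.51 in Snail-line controls (adjusted p = 0.0461), and its change in Snai1-deleted mice was 2.37 (adjusted p = 0.263). Krt17, a stress-inducible chain, was not detected in any contralateral kidney and rose at least 5.40-fold, 2.58-fold and 4.00-fold in the same 3 groups (adjusted p = 0.000964, 0.0107 and 0.00376). In Snai1-deleted mice it was detected in 1 of 3 obstructed kidneys (adjusted p = 0.634). Krt12, best known from the cornea, rose from background in all 4 groups, by at least 1.44-fold, 1.09-fold, 2.76-fold and 1.48-fold. Krt10, a chain of differentiated skin, fell by 0.80 in Twist-line controls (adjusted p = 0.000155) and by 0.54 in Twist1-deleted mice (adjusted p = 0.00502). Krt86, a hair keratin, was detected in 2 of 3 contralateral and 0 of 3 obstructed kidneys of Twist-line controls and was at least 1.14-fold lower in the latter (adjusted p = 0.0179). The other 2 rises in Twist1-deleted mice were those of Krt5 (at least 3.13-fold) and Krt15 (log2 change 2.22), which were named after their values were seen.

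Genes for proteins that tie keratins to desmosomes and hemidesmosomes were called higher for some members and lower for none. Of 14 measured, 7 rose in Twist-line controls, 4 in Twist1-deleted mice, 4 in Snail-line controls and 5 in Snai1-deleted mice, where 26.7%, 21.9%, 21.1% and 10.5% of all genes rose. The counts in Twist1-deleted mice and Snail-line controls are near that background. Their median log2 change was 0.56, 0.19, 0.28 and 0.20. Itgb4, the hemidesmosome integrin chain, rose by 2.33, 2.03, 2.37 and 1.54 in the 4 groups. Ppl (periplakin) rose by 2.12, 1.89, 2.48 and 1.94, and Plec (plectin), which links filaments to hemidesmosomes, by 1.74, 1.32, 1.51 and 1.06. At the other end Dst (-0.75, adjusted p = 0.0896), Pkp4 (-0.31, adjusted p = 0.0654) and Jup (-0.19, adjusted p = 0.214) were not called in Twist-line controls. Other intermediate filament genes rose in 8, 7, 6 and 3 of 8 cases, against the same background. Vim, the vimentin of mesenchymal and injured epithelial cells, rose by 2.83, 2.64, 2.31 and 1.38, and the lamin gene Lmnb1 (1.59) and the nestin gene Nes (1.33) followed in Twist-line controls.

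**Figure D5:**
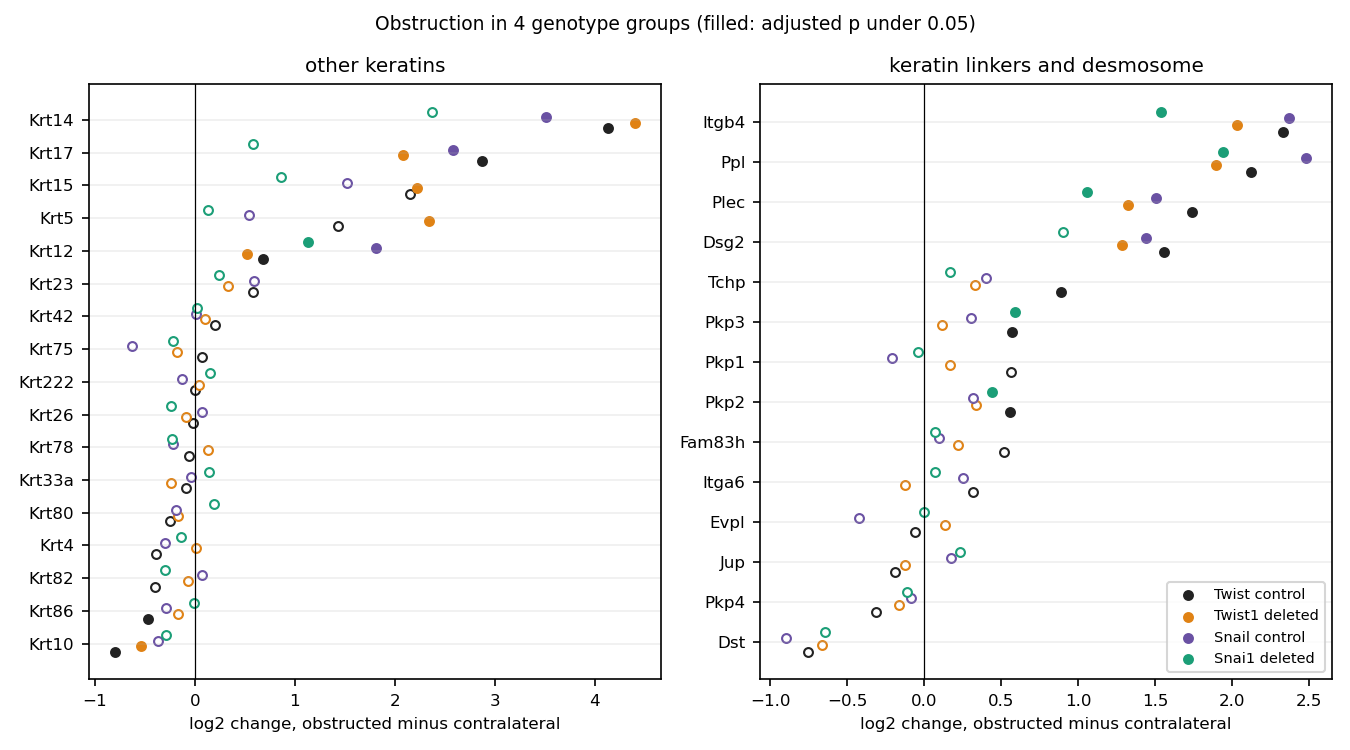
Log2 change on obstruction of the 17 other keratins (left) and of 14 keratin linker and desmosome genes (right) in the 4 genotype groups; filled points passed an adjusted p of 0.05. Krt14 heads the keratins in Twist-line controls (4.14), and Itgb4, Ppl and Plec pass in all 4 groups.

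The transcription factors that bind E-boxes rose in part: of Snai1, Snai2, Twist1, Twist2, Zeb1 and Zeb2, 4 rose in Twist-line controls, 4 in Twist1-deleted mice, 3 in Snail-line controls and 1 in Snai1-deleted mice, beside 26.7%, 21.9%, 21.1% and 10.5% of all genes. In Twist-line controls Snai2 rose by 1.78, Zeb2 by 1.41, Zeb1 by 1.27 and Snai1 at least 1.98-fold. In these kidneys the 3 keratins with an E2-box in the promoter window changed by 0.79 (Krt7, not called), 1.99 (Krt8) and 3.02 (Krt18). Krt20, the only one whose window holds none, changed by 4.57, and Krt19, which had no promoter sequence, by 2.71. A relation between the E2-box and these changes was not tested. Twist1 (0.49, adjusted p = 0.0517) and Twist2 (0.38, adjusted p = 0.0805) were not called there. Zeb1 was the factor called in Snai1-deleted mice (0.66, adjusted p = 0.0258). Binding of these factors was not measured.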

How the data were processed

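Kidney RNA of 25 mice was measured on 37 Illumina bead arrays. Labels mention Trizol and biotin labelling, and GenomeStudio 5.0 comes from the submitters' processing notes. The deposited table gives, per the file headers, a linear intensity and a detection p-value for each probe and array. The series matrix is a second set of intensity values by the authors, which tracked that signal exactly (r = 1, column medians 6.4 to 16.1), with its scaling not given in the sources used here. Unmatched columns and identical arrays numbered 0.

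The neqc function (limma 3.58.1, R 4.3.3, offset 16) corrected the background, quantile-normalised and took log2. Gene symbols were single for 34885 of 45281 probes, several for 18 and missing for 10378, and 34807 matched the reference. Probes with a detection p under 0.05 on 3 or more arrays (24544) entered, and the brightest probe stood for each of 12866 genes. The number of arrays limits the precision.

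A limma model of 12 group means over 37 arrays gave 15 two-sided comparisons, adjusted by Benjamini-Hochberg over all genes. The 2 kidneys of a mouse share its number, which pairs them: their residuals correlated at 0.174 to 0.635 in 12 pairs (consensus 0.234). The main model has no pairing, and mouse entered as a random or fixed replicate block in alternatives. The 12 pairs were compared by exact permutation tests, and correlations over 13 obstructed kidneys used 100000 permutations (Python 3.11.15). The model was tested on simulated data. Replicates are separate mice.

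The members and lists were chosen with earlier results of these data known. Beside the members, named genes were the other keratins called in controls, the 3 largest and 3 smallest log2 changes of a list in Twist-line controls and the 3 genes most like each member, with some markers as examples. Alternatives covered normalisation, the filter, array weights, the groups fitted, the block, leaving out each mouse and, chosen after seeing the data, the urothelial markers.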

Additional observations from a re-analysis of the deposited data

Results flagged for a closer look

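No result was singled out by the checks applied. In the 5 tests for an array standing apart in the group of 4 obstructed Twist1-deleted kidneys, 1 per keratin, 0 found one, and of 15 tests of a difference between obstruction effects 0 passed by limma's adjusted p. The groups of 3 arrays were too small for the first check, so an array standing apart in them could not be flagged.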

How the results depend on the processing

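Of 229 alternative values of the called keratin changes, 224 stayed called, 5 were no longer called and 0 reversed. Of 1036 values of uncalled changes, 19 became called. In Snai1-deleted mice the keratins called on obstruction numbered 1 to 3 when each mouse was left out in turn, with mouse 13 giving the lowest. Without the arrays holding all 4 uroplakins, 2 of 5 keratins were called for the difference of the obstruction effect in the Twist line, 2 for Twist1 deletion and 1 for Snai1 deletion in obstructed kidneys, beside 8.85%, 16.3% and 0.886% of all genes. The first 2 counts compare 1 obstructed kidney per genotype, mouse 7 with mouse 3, each assumed to vary like the other groups, and are no test of the deletion. In the first of them Krt8 differed by -1.44 and Krt20 by -2.48. The count for Snai1 deletion rests on leaving out mice 10 and 13, through which the groups overlapped in Krt20. Array quality weights gave 1 call for Snai1 deletion in obstructed kidneys (Krt20) and 1 for contralateral against healthy kidneys (Krt7). Among all 12866 genes they gave 486 and 3269 calls. A fit of only the groups compared gave 1 call in healthy Twist1-deleted mice (Krt7), beside 2144 of all 12866 genes. Such a fit also raised Krt19 in Snai1-deleted mice past the threshold (adjusted p = 0.0254) and lost Krt19 in Twist-line controls (0.0541). The replicate block changed the calls given above, of Krt7 in the Twist line and Krt19 in Snai1-deleted mice (2.03, adjusted p = 0.0243 and 0.034), and no other call of a keratin.

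With only the 3 mice in which neither kidney had all 4 uroplakins, an alternative chosen after seeing the data, the paired differences were 0.38 for Krt7, 1.50 for Krt8, 2.32 for Krt18, 2.19 for Krt19 and 4.24 for Krt20, and none passed, because 3 mice cannot go below an exact p of 0.25. Urothelial signal remained in these mice, with 3 of the 4 uroplakins detected in the obstructed kidneys of mice 3 and 8. Leaving out each of the 12 mice gave 0.52 to 0.68, 1.46 to 1.62, 2.18 to 2.51, 2.61 to 2.93 and 4.26 to 4.58, all past the threshold. Without the background step Krt19 differed by 1.44 and Krt20 by 2.47.

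Over all genes, obstruction gave 4269 to 6825 calls in Twist-line controls (6071 as reported), 2299 to 5897 in Twist1-deleted mice (5156), 3818 to 5580 in Snail-line controls (4678) and 1162 to 2893 in Snai1-deleted mice (1962), and 607 (without mouse 13) to 1511 in the last when a mouse was left out. The difference in the Twist line gave 0 to 1139 (0 as reported), that in the Snail line 0 to 4 (0) and that between control lines 0 to 54 (5). Twist1 deletion gave 0 to 2095 in obstructed (4) and 0 to 6 in contralateral kidneys (1), and Snai1 deletion 0 to 486 in obstructed kidneys (0). Contralateral against healthy kidneys gave 1678 to 3571 (2284), cre 1 to 4 (2), healthy Twist1-deleted mice 21 to 2883 (438) and healthy Snai1-deleted mice 94 to 1054 (114). Leaving out each mouse gave 1411 (without mouse 19) to 1717, 1 to 7, 67 (without mouse 16) to 147 and 46 (without mouse 24) to 74 in these 4, 1 to 82 (without mouse 3) for Twist1 and 0 to 6 for Snai1 deletion in obstructed kidneys, 1 to 4 and 0 to 2 in contralateral ones, and 0 to 10 for the difference between control lines. With the series matrix values 44.2%, 44.6% and 44.8% of calls were higher in Twist-line controls, Twist1-deleted mice and Snail-line controls, against 56.5%, 54.7% and 57.9%. With those values Krt7 was higher in 8 of 12 obstructed kidneys (0.34, exact p = 0.0435). Weak signals limit Krt19 and Krt20 outside obstruction, where most arrays were not above background. The slide as a block was not run because the headers name no slides.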
